A study of Drosophila melanogaster with 4 samples.

Results

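The regions described here are the Lola-PI peaks on chromosomes X and 4 of Drosophila melanogaster, the 2 chromosomes of the fly that have chromosome-wide regulation of their own. All rows of the authors' peak list that name X or 4 were taken, which gave 146 peaks on X and 54 on chromosome 4, or 200 of the 2639 peaks in the list. No row named XHet. The arms 2L, 3L and 3R, with 1827 peaks together, serve as reference. The list comes from chromatin immunoprecipitation and sequencing (ChIP-seq) of wandering L3 larvae, with 2 libraries precipitated by the anti-GFP antibody ab290 and 2 libraries of input DNA. ChIP and input libraries share 1 strain, lola-RI-GFP, with the genotype PBac{y[+]-attP-3B}VK00033 and a transgene of the lola-RI genomic coding region. The series title calls the tagged protein lola-PI. The culture protocol, which may be a general one, names y; bw cn sp flies. The tagged protein came from a transgene, whole larvae mix many tissues, the sex of the larvae is given as unknown, and an untagged strain was not analysed here.

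Lola (longitudinals lacking) is a gene whose many spliced products are transcription factors with a shared BTB domain and, for the most part, different zinc fingers. It is best known for axon guidance and neuronal identity. In males the single X is transcribed at a raised level through the MSL dosage compensation complex, which spreads over active X-linked genes. Chromosome 4 is small and rich in repeats, is coated by the protein POF and carries the heterochromatin protein HP1a along much of its length, yet it has actively transcribed genes. By the usual convention, coordinates on X run from the telomere towards the centromere, and those on chromosome 4 run from the centromere side towards the telomere.

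All positions below are on FlyBase release 5. Each peak has 1 score, given by the authors without a stated scale, so scores are used to rank and describe peaks and not as a fold enrichment. No value per library was in the list. The depth is therefore unknown, no replicate error can be given, and no p-value is given for any difference between chromosomes. Intervals are exact 95% intervals that cover counting error only, except those of a median distance divided by a mean distance, which are approximate. All intervals treat peaks as independent, which neighbouring peaks are not, so they are too narrow.

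Peaks were sparse on X and dense on chromosome 4, with the autosomal arms between them. X held 6.79 peaks per Mb (interval 5.73 to 7.99) and chromosome 4 held 41.0 per Mb (interval 30.8 to 53.5), taking the end of the last peak as the length. The density on X was 0.17 times that on chromosome 4 (interval 0.12 to 0.23). The reference arms ranged from 22.8 per Mb on 2L to 25.0 per Mb on 3R. Peaks covered 44.5 kb, or 0.207%, of X, and 19.0 kb, or 1.44%, of chromosome 4, against 0.812% of the reference arms. Since the sex of the larvae is not given and the list holds no input values, fewer X copies in a pool that holds males and fewer Lola-PI sites on X cannot be told apart.

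The contrast between the chromosomes depended on how high the peaks scored. Among peaks scoring under 10, X had 42 and chromosome 4 had 11, and the density on X was 0.45 times that of the reference arms (interval 0.32 to 0.62). Between 10 and 16.39, the upper quartile of the reference arms, that ratio was 0.27 (interval 0.21 to 0.34). From 16.39 up to 30, where X had 17 peaks, the ratio was 0.15 (interval 0.08 to 0.24). At 30 and above X had 7 peaks and the reference arms 51, a ratio of 0.48 whose interval of 0.18 to 1.07 includes 1. The ratio of X was thus lowest among moderately high peaks, and its few very high peaks were not shown to be fewer per Mb than on the autosomal arms.

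Chromosome 4 stood out among peaks scoring 30 or more, although only 1 of its peaks scored 40 or more. In the same score ranges, from low to high, its density relative to the reference arms was 1.91 (interval 0.94 to 3.46), 1.27 (interval 0.80 to 1.91), 1.69 (interval 0.87 to 2.98) and 8.98 (interval 3.68 to 19.1). Of these 4 ratios, only the last has an interval that leaves out 1, and it rests on 8 peaks at 6.08 per Mb, against 0.676 per Mb on the reference arms. Per Mb, X had 0.05 times as many peaks scoring 30 or more as chromosome 4 (interval 0.02 to 0.17). The score ranges were chosen after the values had been seen.

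The middle of the score distribution differed less than its upper end. The median score was 11.9 on X (interval 10.9 to 12.4) and 13.98 on chromosome 4 (interval 12.6 to 17.9), against 12.94 on the reference arms (interval 12.8 to 13.2). Lower quartiles were close, at 9.90 on X and 10.4 on chromosome 4, against 10.6 on the reference arms. The upper quartile was 13.9 on X and 24.9 on chromosome 4, against 16.4 on the reference arms. The upper quartiles of X and chromosome 4 thus lay on either side of that of the reference arms.

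A peak was called high when it scored at or above the upper quartile of the reference arms, a limit that 458 of their 1827 peaks met, or 25.1%. On X, 24 of 146 peaks met it, or 16.4% (interval 10.8 to 23.5). On chromosome 4, 20 of 54 met it, or 37.0% (interval 24.3 to 51.3). The nearest scores below and above the limit were 16.22 and 16.54 on X, and 16.25 and 17.91 on chromosome 4. The X interval lies below the background share of 25.1%, whereas the lower end of the chromosome 4 interval is just under it. At a limit of 20 the shares were 11.0% on X and 33.3% on chromosome 4, against 13.1% on the reference arms. At 30 they were 4.79% on X and 14.8% on chromosome 4, against 2.79% on the reference arms, so that the share on X was then above that of the arms. At 40 they were 1.37% on X, with 2 peaks, and 1.85% on chromosome 4, with 1 peak, against 1.37% on the reference arms. The counts at 40 are too small to compare.

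**Figure D1:**
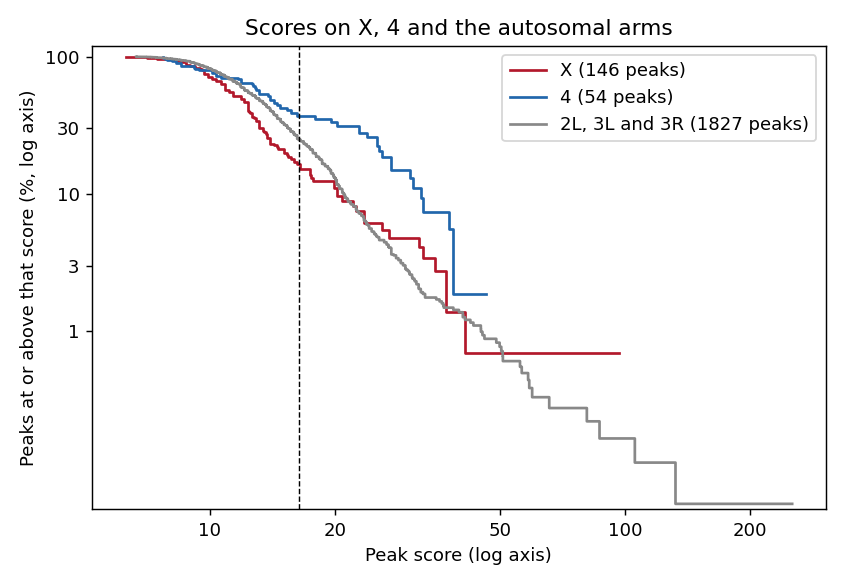
Share of peaks (%, log axis) at or above each peak score (log axis) for the 146 peaks of X, the 54 of chromosome 4 and the 1827 of 2L, 3L and 3R, with the limit of 16.39 as a dashed line. The line of chromosome 4 runs above that of the autosomal arms from the limit to about 40, while X runs below it at the limit and ends in 1 peak of 97.1.

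Chromosome 4 was also set against stretches of its own length, 1316503 bp, laid end to end. It held 54 peaks, of which 8 scored 30 or more. The 16 such windows of X held 2 to 19 peaks, with a median of 8.5, and at most 2 of them scored 30 or more. The 56 windows of the reference arms held 7 to 56 peaks, with a median of 32, and at most 4 scored 30 or more. One autosomal window, on 2L, held as many peaks as chromosome 4, but no window of X, 2L, 3L or 3R held as many that scored 30 or more. With overlapping windows in steps of 100 kb, chosen after seeing the data, the most were 2 on X over 202 windows and 5 on the reference arms over 716. In number of peaks alone chromosome 4 was matched by 23 of those 716, and in number of high peaks by 4 of them.

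The share of high peaks set chromosome 4 apart less than the count did. Among the 55 autosomal windows with at least 10 peaks, the median share was 24.4%, the lowest 3.45% and the highest 48.3%, and 7 windows reached the 37.0% of chromosome 4. Of the 6 X windows with at least 10 peaks, 1 did, with 38.5%. That window runs from 15798037 to 17114539 and holds 5 of the 24 high X peaks. At the other extreme, 5 of the 16 X windows held no high peak, whereas each of the 56 autosomal windows held at least 1. These 5 windows, counted without the limit of 10 peaks, held 5, 13, 5, 6 and 8 peaks. The median of the autosomal windows was 32. Fewer peaks by themselves leave more windows without a high one, and their part was not tested.

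**Figure D2:**
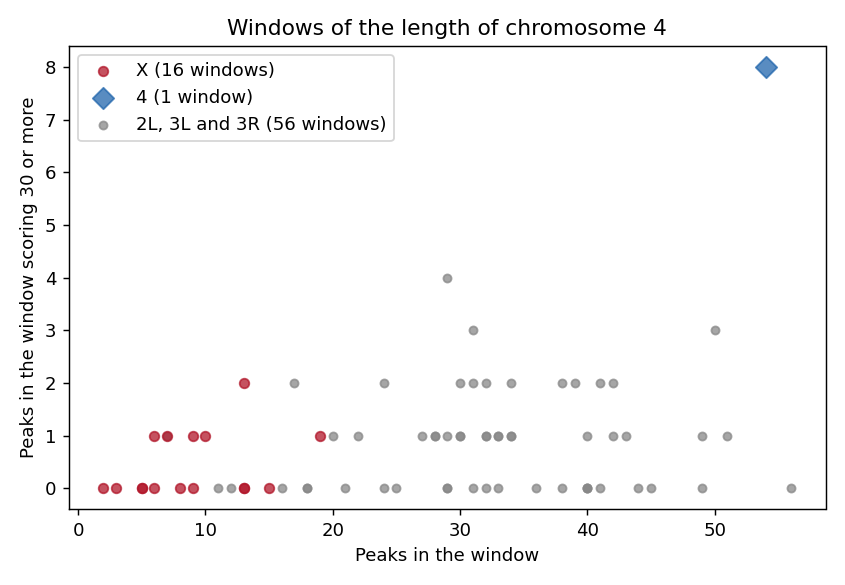
Number of peaks (x axis) and number of peaks scoring 30 or more (y axis) in adjacent windows of 1316503 bp, for X (16 windows), chromosome 4 (1 window, the whole chromosome) and 2L, 3L and 3R (56 windows). Chromosome 4 has 8 peaks scoring 30 or more, and no other window has more than 4.

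Peaks were fewest in the telomeric part of X. Cut into 4 segments of equal length, X held 23 peaks, or 15.8% of its total, in the telomeric segment and 34, 47 and 42 in the following ones towards the centromere. Its segments held from 15.8% to 32.2% of its peaks. The range was 18.3% to 33.2% on 2L, 18.6% to 28.2% on 3R and 23.8% to 26.4% on 3L. The range on X was thus nearest to that of 2L and wider than on each arm. X has fewer peaks, and the part of this in its range was not tested. The median score changed little over the segments of X, at 12.6, 11.9, 11.1 and 11.6. High peaks did not follow the count, with 5, 2, 9 and 8 in the same order. Of the 21 complete 1-Mb bins of X, 9 held no high peak. The fullest bins lay at 19000001 to 20000000, with 16 peaks, at 15000001 to 16000000, with 15, and at 11000001 to 12000000, with 13, and they held 3, 4 and 2 high peaks. The emptiest, from 3000001 to 4000000, held 2 peaks, of which 1 was high.

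Chromosome 4 had peaks in each part of its length, and its segments held from 18.5% to 33.3% of them. Its 4 segments of equal length, from the centromere side towards the telomere, held 12, 14, 10 and 18 peaks. High peaks numbered 5, 5, 2 and 8, and the median scores were 15.5, 15.0, 11.6 and 13.2. The segment from 658252 to 987377 was thus lowest in number, in high peaks and in median score. Among 13 complete 100-kb bins, only the one from 700001 to 800000 had no peak. The fullest, from 1000001 to 1100000, held 9 peaks, of which 4 were high.

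**Figure D3:**
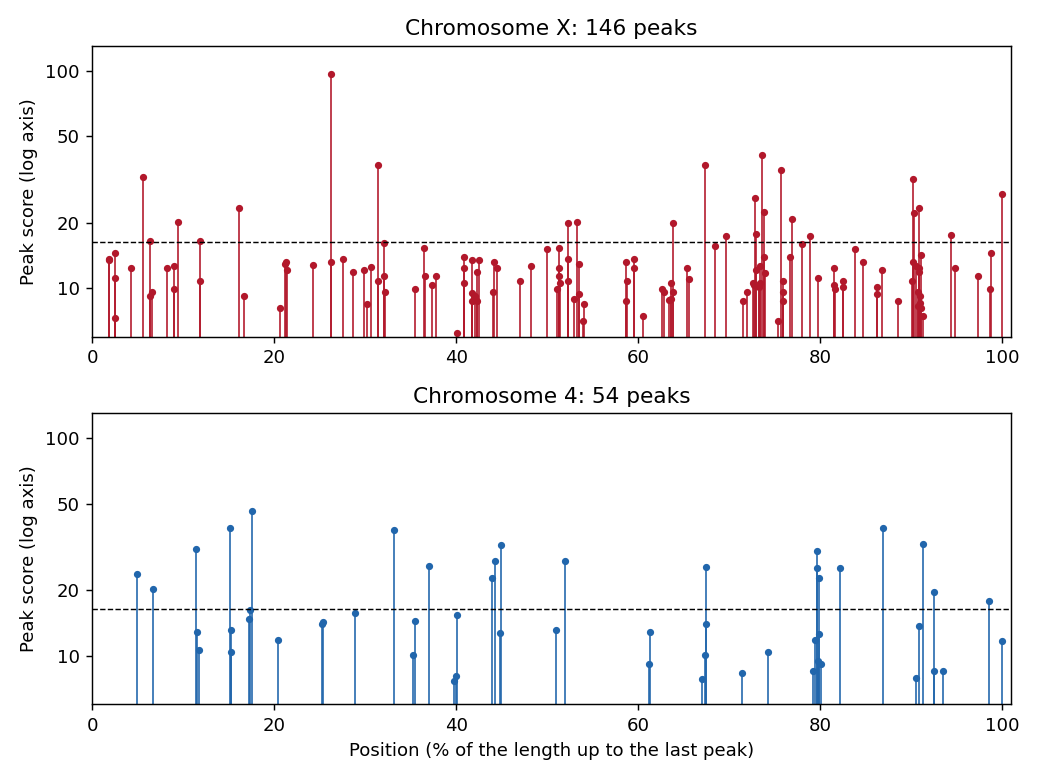
Score (y axis, log) of each peak of X (upper panel, 146 peaks) and of chromosome 4 (lower panel, 54 peaks) against position in percent of the length up to the last peak, with the limit of 16.39 as a dashed line. On X 24 peaks stand above the line and 1 reaches 97.1. On chromosome 4 there are 20 above it, spread from end to end, and the highest reaches 46.35.

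Empty stretches took up much of X. Its 3 longest gaps ran from 11613488 to 12612458, from 2542916 to 3464451 and from 3590549 to 4430769, with 999, 922 and 840 kb between the midpoints on either side. The longest gap of the reference arms, on 3L, was longer, at 1126 kb. Gaps longer than 500 kb numbered 9 on X and made up 29.5% of its length. On the reference arms there were 5 of them, making up 4.98%. The longest gap on chromosome 4, from 684138 to 805463, measured 122 kb, and no other exceeded 100 kb. Gaps longer than 100 kb made up 88.8% of X and 9.24% of chromosome 4, against 61.5% of the reference arms. Peaks were thus spread over chromosome 4 with hardly a long gap, and most of X lay in long gaps. The mean gap was 146 kb on X and 23.6 kb on chromosome 4, against 41.3 kb on the reference arms. A lower density by itself leaves longer gaps, and its part in these shares was not tested.

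The spacing of near neighbours on chromosome 4 was close to that on the autosomal arms. The median distance between neighbouring midpoints was 52.5 kb on X and 6.92 kb on chromosome 4, against 9.76 kb on the reference arms. Distances of at most 10 kb made up 26.2% of the 145 gaps on X and 50.9% of the 53 on chromosome 4, against 50.3% of the 1824 on the reference arms. The higher density of chromosome 4 thus came with few long gaps, and its share of short gaps was like that of the arms. Divided by the mean distance on the same chromosome, the median distance was 0.36 on X (interval 0.25 to 0.70) and 0.29 on chromosome 4 (interval 0.12 to 1.15), against 0.21 on 2L, 0.25 on 3L and 0.25 on 3R. These intervals hold the mean distance fixed and are not exact. The interval on chromosome 4 is too wide to say whether its peaks are more or less clustered for their number than those of any other arm.

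**Figure D4:**
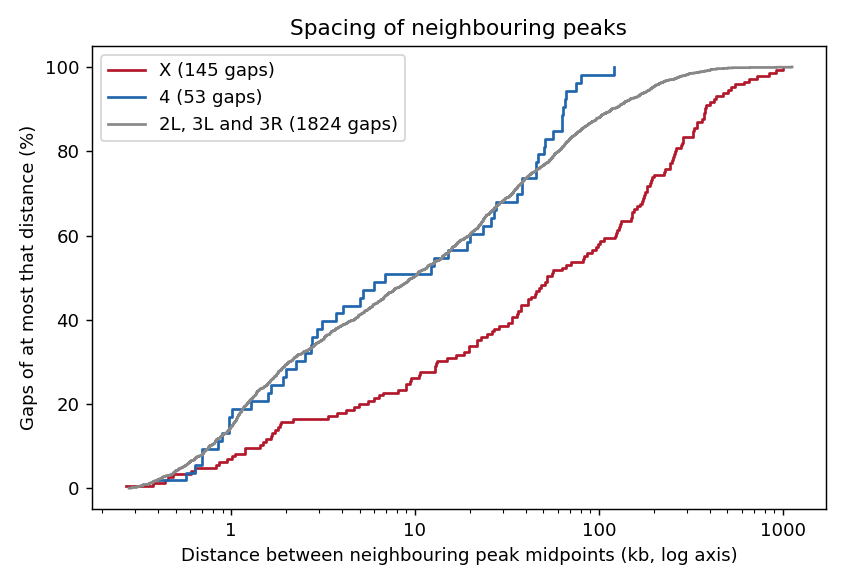
Share of gaps (%) of at most a given distance between neighbouring peak midpoints (kb, log axis) on X (145 gaps), chromosome 4 (53 gaps) and 2L, 3L and 3R (1824 gaps). Chromosome 4 follows the autosomal arms up to about 50 kb and ends at 122 kb, and X lies to the right of both, with a median of 52.5 kb.

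Single peaks were common on X. A peak with no other midpoint within 10 kb was called isolated, which held for 482 of 1827 peaks on the reference arms, or 26.4%. On X 77 of 146 were isolated, or 52.7% (interval 44.3 to 61.1), and on chromosome 4 15 of 54, or 27.8% (interval 16.5 to 41.6). A lower density by itself leaves more peaks isolated, and its part in the X share was not tested. The isolated peaks of X had a median score of 12.1 and its other 69 peaks one of 11.4. On chromosome 4 the median was 17.9 for the 15 isolated peaks, of which 8 were high, and 13.8 for the other 39, of which 12 were high. The interval of the first of these medians, 11.7 to 26.0, includes the second. On X 19.5% of isolated and 13.0% of other peaks were high, against 23.7% and 25.6% on the reference arms. On the reference arms the medians were 12.1 for isolated peaks and 13.2 for the rest. The arms did not share 1 direction, since isolated peaks had the higher median on 2L, at 13.4 against 13.0, and the lower on 3L and 3R. Across all peaks, score and distance to the nearest neighbour had a Spearman's rho of 0.08 on X and 0.02 on chromosome 4, too weak to be read as a relation.

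When peaks within 10 kb of each other were chained together, X had 108 groups, of which 77 were single peaks, 24 were pairs and 7 held 3 peaks. No group on X was larger than that. Chromosome 4 had 27 groups, of which 15 were single peaks, 4 were pairs and 8 held 3 or more. Its largest, from 1043527 to 1054920, held 8 peaks in 11.4 kb, with scores from 8.52 to 30.35. The largest groups on 2L and 3L held 9 peaks and that on 3R held 12. Of the groups of at least 2 peaks, 9 of 31 on X (29.0%) and 8 of 12 on chromosome 4 (66.7%) had a high peak among them, against 56.3% on 2L, 54.2% on 3L and 56.3% on 3R. Over all peaks the share of high ones was 16.4% on X and 37.0% on chromosome 4, against 25.1% on the reference arms. The 31 groups of X held 69 peaks and the 12 of chromosome 4 held 39. The part of these shares and group sizes was not tested.

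Close pairs differed in make-up between the chromosomes. Neighbours less than 1 kb apart numbered 10 on X and 9 on chromosome 4. On X the higher peak of a pair had a median score of 13.3, and the median difference between the partners was 1.83. On chromosome 4 the higher peak had a median of 25.3, and the median difference was 11.1. The corresponding values over 265 pairs on the reference arms were 16.1 and 3.91. A high peak was present in 1 of the 10 pairs on X, where differences reached 8.53, and in 7 of the 9 on chromosome 4, where 1 pair joined 2 high peaks. The pairs on chromosome 4 were not all separate. The high peak from 1048453 to 1048884 was part of more than 1 of these 7. Likewise, the peak from 200391 to 200662 was part of more than 1 of the 9. Among the 265 reference pairs, 122 held a high peak. The pair with the largest difference on chromosome 4 joined the peak from 199947 to 200306, with a score of 38.64, to that from 200391 to 200662, with a score of 10.38. The closest pair on X, from 16317055 to 16317263 and from 16317319 to 16317533, scored 9.67 and 8.75 and left 55 bp between the peaks. Whether such pairs are single regions that were split in the peak calling cannot be told from the list.

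The most crowded places were looked at on a finer scale. The fullest 100-kb stretch of X ran from 19510380 to 19592620 and held 9 peaks. Their median score was 9.67, below the median of X, the lowest was 8.10 and the highest 23.53, and 1 of them was high. On chromosome 4 the fullest stretch, from 150432 to 230953, also held 9 peaks, with scores from 10.38 to 46.35, a median of 14.8 and 3 high peaks. The fullest stretches of the reference arms held 17 or 18. Chromosome 4, although denser than the arms as a whole, thus had no stretch as crowded as the fullest of each arm. The arms are much longer, and a longer search can by itself find a fuller stretch. A comparison at like length was not made here.

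Widths ran from 201 to 898 bp on X and from 201 to 771 bp on chromosome 4. The median width was 269.5 bp on X (interval 261 to 286) and 302.5 bp on chromosome 4 (interval 263 to 348), against 293 bp on the reference arms (interval 287 to 301). Only 9 peaks on X, or 6.16%, were at least 500 bp wide, and 9 on chromosome 4, or 16.7%, against 11.8% on the reference arms. Wider peaks scored higher on each of these chromosomes, with a Spearman's rho of 0.38 across the peaks of X, 0.48 across those of chromosome 4 and 0.44 across those of the reference arms. Both measures were made in the same peak calling.

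Scores were also set side by side at like widths. Among peaks under 250 bp wide the median score was 10.9 on X and 13.2 on chromosome 4, against 11.4 on the reference arms. From 250 bp up to 350 bp it was 12.1 on X and 12.3 on chromosome 4, against 13.2. From 350 bp up to 500 bp it was 13.3 over 24 peaks of X and 22.4 over 10 peaks of chromosome 4, against 14.3. For the widest peaks it was 31.9 on X and 30.9 on chromosome 4, with 9 peaks each, against 18.0 over 215 peaks of the reference arms. Of these widest peaks, 6 of the 9 on X and 8 of the 9 on chromosome 4 were high, against 129 of the 215 on the reference arms. The widest peak of X, from 19387386 to 19388283, was not, with a score of 13.17. In peaks under 500 bp X had a lower median than the reference arms in each class.

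The highest peak of X, from 5640147 to 5640895, was 749 bp wide and scored 97.1, which only 3 of the 1827 reference peaks exceeded. It stood 55.95 above the next score on X, 41.15, which belonged to the peak from 15827698 to 15828338. A bare stretch of 424 kb lay on its telomeric side and a neighbour 9.36 kb away on the other. The peak across that bare stretch, from 5216524 to 5216728, was the most isolated on X, with the nearer neighbour 424 kb and the farther 615 kb away, and scored 12.8. The highest and the most isolated peak of X were thus next to each other.

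Ranks 3 to 7 on X scored between 31.87 and 37.00. The peaks from 6746471 to 6746941 and from 14477083 to 14477505 both scored 37.00, and the second of these had its nearest neighbour 249 kb away. The peak from 16278922 to 16279496 scored 34.99, that from 1209550 to 1210246 scored 32.64, with the nearest neighbour 151 kb away, and that from 19389261 to 19389764 scored 31.87. Of these 5, only the last had a neighbour within 2 kb. The remaining ranks of the first 10 were the last peak of X, from 21501302 to 21501737, with a score of 27.03, the peak from 15654826 to 15655134, with 25.96, and that from 3464451 to 3464792, with 23.53, a value shared with 1 other X peak. Of the 10 highest peaks of X, 7 were isolated, and 3 of the 10 highest of chromosome 4, beside shares over all peaks of 52.7% on X and 27.8% on chromosome 4.

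After the first, the most isolated peaks of X were unremarkable in score. They ran from 19047994 to 19048434, with a score of 8.75 and 326 kb to the nearer neighbour, from 20932168 to 20932403, with a score of 11.36 and 288 kb, from 925058 to 925292, with a score of 12.38 and 285 kb, and from 10368137 to 10368363, with a score of 12.64 and 264 kb. Each scored below the limit for high peaks. The first peak on X, from 388368 to 388620, scored 13.71 and had a close partner 0.44 kb away.

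The highest peak of chromosome 4, from 230223 to 230953, scored 46.35, and 16 reference peaks exceeded it. Next came 2 peaks of 38.64, from 199947 to 200306 and from 1144273 to 1144682, and 1 of 37.82, from 436215 to 436786. The 8 peaks scoring 30 or more were completed by those from 1202328 to 1202973, at 32.64, from 591191 to 591949, at 32.25, from 150432 to 151202, at 30.89, and from 1047821 to 1048234, at 30.35. Ranks 9 and 10 were the peaks from 683776 to 684138, at 27.39, and from 582388 to 582937, at 27.31. The highest score of chromosome 4 stood 7.71 above the next, a smaller step than the 55.95 between the first 2 scores on X.

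The highest peaks of chromosome 4 had neighbours about as often as its other peaks. Of the 8 that scored 30 or more, 6 had a neighbour within 6 kb, as had 72.2% of all peaks on the chromosome. The peaks from 1144273 to 1144682 and from 436215 to 436786 had their nearest at 47.0 and 27.5 kb. The first of these was also the most isolated peak of the chromosome. The next most isolated ran from 380344 to 380555, with a score of 15.67, and from 268704 to 268942, with 11.87. They were followed by those from 939691 to 939997, with 8.31, and from 977679 to 978132, with 10.38, which are each other's nearest neighbours at 38.1 kb. The first peak of chromosome 4, from 64413 to 64756, scored 23.87 and the last, from 1316284 to 1316503, scored 11.67. No peak was assigned to a gene, since the gene table at hand is on another release of the genome.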

How the data were processed

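ChIP and input libraries (2 each) were grouped by their titles. The authors deposited 1 peak list for the series, and per the file headers its coordinates are on FlyBase release 5 and its caller is MACS. BWA, MACS2, the build BDGP5 and 2 versions of CASAVA (1.7.0.2, 1.7.0.3) stand in the submitters' processing notes with no role or order. For pooling of libraries and for the peak threshold, nothing is given in the sources used here. Peak scores are the authors' deposited values, whose scale is not stated. Other deposited values, peak start and end, were used as they stand (1-based).

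Distances are between midpoints. Chromosome length is the end of the last peak. Density ratios have conditional binomial intervals, densities Poisson, shares Clopper-Pearson and medians order-statistic intervals, all at 95%. Those of density ratios, shares and medians were checked on simulated independent values, and those of densities were not checked. Peaks are not replicates, and depth is unknown, so no p-value was computed. Chromosomes, lists and limits were chosen with earlier results of these data known. Named peaks are the 10 highest, the 5 most isolated, and the first and last. Also named are those bounding the 3 longest gaps and those of the fullest 100-kb stretch on X and on 4. A tie for the fullest stretch on 4 went to the first by position. Analyses used scipy 1.17.1, pandas 2.3.3, numpy 2.4.6 and matplotlib 3.10.9 under Python 3.11.15. The gene table at hand is on release 6, so no gene, annotation or sequence was used.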

Additional observations from a re-analysis of the deposited data

How the results depend on the processing

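No paired analysis was possible because the list gives each peak 1 value for the whole series, and leaving out a replicate could not be tried either. Of 35 recomputed values for 11 results, 27 stayed within the interval of the reported value and 8 moved out of it. A change of direction was looked for in the density ratios only, and 0 of them changed. With only peaks at or above the median score of the whole list, the density ratio of X was 0.10 over chromosome 4 and 0.20 over the reference arms, and the median width on X was 307.5 bp. At or above its upper quartile the ratio of X was 0.067 over chromosome 4 and 0.18 over the reference arms, and that of chromosome 4 over those arms was 2.71. Merging within 2000 bp gave 0.33 for X over the reference arms, because more autosomal peaks have close neighbours. With the score that 10.0% of reference peaks met as the limit, 8.90% of X peaks and 31.5% of chromosome 4 peaks met it, so X was then near the background. Both shares were counted against intervals at the earlier limit, where the background was 25.1%, so their place in the count says little. The relative median gap on chromosome 4 was 0.82 after merging within 2000 bp and 0.29 as reported, both inside its wide interval. With the same merging it also rose on X, from 0.36 to 0.58. It rose on each reference arm too, to 0.39 on 2L, 0.43 on 3L and 0.49 on 3R. The unknown depth limits any statement on stretches without a peak.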
